A study of Mus musculus with 15 samples.

Results

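The effect of losing XLF in B cells that already lack SHLD1 was examined in 5 CSR-HTGTS libraries of the 15 in the series. CSR-HTGTS amplifies from a fixed bait in 5′Sμ and reads the DNA joined to it, so each row of a library's list is 1 junction between the bait and a prey break. The libraries were chosen by a measured value. The Sγ1 junction counts of 3 libraries equal counts that the study's figures print for Shld1-/- cells (named S1, S2 and S3 here), and those of 2 libraries equal counts printed for Shld1-/- Xlf-/- cells (SX1 and SX2). The labels of the deposit give the same genotype for S2 (Shld1-/-) and SX2 (Shld1-/-XLF-/-) only. S1 is labelled WT, S3 is labelled Shld1-/-XLF-/-, and SX1 is labelled XLF-/-. The lists hold no genotype, so every value below belongs to a set defined by the printed counts, and the Sγ1 counts themselves are no finding. The share of deletional Sγ1 junctions past the core of Sγ1 was not used to choose the libraries. It was 19.4% in S1, against 0.402% in the library that is WT in label and figure. In SX1 it was 34.2%, against 6.64% in the library that is Xlf-/- in both. S3 had 24.3%, S2 27.0% and SX2 38.7%. Which source is right was not tested.

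All 5 libraries are genomic DNA of splenic B cells from C57BL/6 mice, cultured with αIgD-dextran, LPS and IL4, which turns on AID and steers switching to IgG1. The Shld1 and Xlf alleles are germline nulls, so cells other than B cells lacked the proteins as well, and development preceded the culture in their absence. The labels also carry a target locus entry, which names a non-coding IgH Sm-Sa deletion for S1, adds an Ia deletion for S2 and SX1, and names an insertion of CBEs downstream of Cg2a for S3 and SX2. The study's methods describe none of these alleles for these mice, and Sμ, Sγ1 and the DNA between them gave junctions in every library.

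Class switching joins a break in Sμ to a break in a downstream switch region. AID makes the breaks, 53BP1, RIF1 and the Shieldin complex, of which SHLD1 is a subunit, protect the ends from resection, and non-homologous end joining seals them. XLF works with XRCC4 and DNA ligase IV to hold and ligate ends, and many of the joins made this way are direct or carry a few added bases. When that route is impaired, ends can be joined through short stretches of sequence that both partners share, called microhomology (MH). A junction in which prey and bait lie on the same strand deletes the DNA between them and can give a switched heavy chain, whereas an inversional junction cannot. A prey break beyond the repetitive core of the acceptor region is a sign of an end that was resected before joining.

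The junctions were counted on chromosome 12 of mm9 between 114450000 and 114700000. The Sγ1 window ran from 114562000 to 114582000, with its core from 114569000 to 114577000, and the Sμ window from 114653500 to 114673500. S1, S2 and S3 held 2120, 2883 and 2532 *Igh* junctions, of which 542, 880 and 803 lay in Sγ1 and 1379, 1600 and 1361 in Sμ. SX1 and SX2 held 2424 and 1159, with 612 and 300 in Sγ1 and 1477 and 738 in Sμ. SX2 is therefore the shallowest list, and its shares have the widest intervals. No read name occurred in more than 1 library, and any pair of libraries had 19 to 65 identical *Igh* junctions, 1.71% to 3.43% of the smaller list.

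Every junction starts from the same stretch of 5′Sμ, so its sequence is given first. It was read from the bait part of the reads, 140 bases from mm9 chromosome 12, 114664909 down to 114664770, on the minus strand, and it matched GRCm38 at 113426559 to 113426698 without a mismatch. Capitals mark AGCT, the palindrome that AID prefers, which begins at base 64 and again at base 85:

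bait: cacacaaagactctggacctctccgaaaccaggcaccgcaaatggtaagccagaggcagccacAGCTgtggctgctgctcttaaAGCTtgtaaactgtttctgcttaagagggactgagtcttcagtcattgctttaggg

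Joins ended after a median of 65, 65 and 66 bait bases at Sγ1 in S1, S2 and S3, and after 62 in both SX1 and SX2. The bait end lay in or directly beside 1 of those AGCT motifs in 17.7%, 19.9% and 21.3% of Sγ1 junctions in S1, S2 and S3 and in 19.0% and 16.0% in SX1 and SX2, ranges that overlap.

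The junction types compared below are shown by 1 read each, the read nearest the median prey position of its type with clean alignments. In each, 22 bases of bait come first and 22 bases of prey last. Capitals mark the bases that both partners share, or the inserted bases, and the direct joins have neither. Prey positions are those of mm9 chromosome 12.

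S2, direct join in core Sγ1 at 114573854: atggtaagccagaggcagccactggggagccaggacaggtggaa

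SX2, direct join in core Sγ1 at 114575030: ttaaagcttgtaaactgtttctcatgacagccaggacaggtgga

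SX1, MH of 2 bp in core Sγ1 at 114572575: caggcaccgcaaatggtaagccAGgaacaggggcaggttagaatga

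SX1, MH of 4 bp in core Sγ1 at 114572964: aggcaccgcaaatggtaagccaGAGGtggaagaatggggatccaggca

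SX1, MH of 5 bp in an exon of Ighg1 at 114564638: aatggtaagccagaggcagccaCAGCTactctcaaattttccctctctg

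SX1, inversional join in core Sγ1 at 114574824: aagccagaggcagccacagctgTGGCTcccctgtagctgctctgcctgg

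S1, insertion of 2 bp in core Sγ1 at 114573567: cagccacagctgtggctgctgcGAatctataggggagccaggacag

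The prey sides of the pair of direct joins and of the insertion come from different copies of the Sγ1 repeat and share the run agccaggacag. That run stood within the first 60 prey bases of 34.6%, 28.3% and 32.0% of deletional core junctions in S1, S2 and S3 and of 24.3% and 27.9% in SX1 and SX2.

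Of the 11 features tested, direct joins at Sγ1 differed most between the sets as a ratio of their means. Of Sγ1 junctions without an insertion, 76 of 458 in S1 were direct (16.6%, 95% Wilson interval 13.5 to 20.3), 122 of 753 in S2 (16.2%, 13.7 to 19.0) and 84 of 660 in S3 (12.7%, 10.4 to 15.5). In SX1, 30 of 545 were direct (5.50%, 3.88 to 7.75), and in SX2, 15 of 262 (5.73%, 3.50 to 9.23). Both Shld1-/- Xlf-/- libraries thus lay below all 3 Shld1-/- libraries, with no overlap of the intervals. The mean was 15.2% ± 2.13 (SD, n = 3) against 5.62% ± 0.156 (SD, n = 2), a difference of -9.56 percentage points and a ratio of 0.370. An exact two-sided permutation test gave p = 0.1, the smallest that 2 against 3 libraries can give, so that no comparison here can pass 0.05. Adjusted over the 11 tests of this kind, p = 0.157 by the same exact test. When the libraries were instead grouped by label (S3 and SX2 against S2 and a library labelled Shld1-/- whose count is printed for WT), the difference was -14.3 points and the groups did not overlap. That last library had 30.8% direct joins, against 16.2% in S2 and 30.3% in the library that is WT in label and figure. If the printed genotypes hold, no difference by label given here isolates the loss of XLF. Intervals cover counting error only, since reads are amplified copies of molecules.

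**Figure D1:**
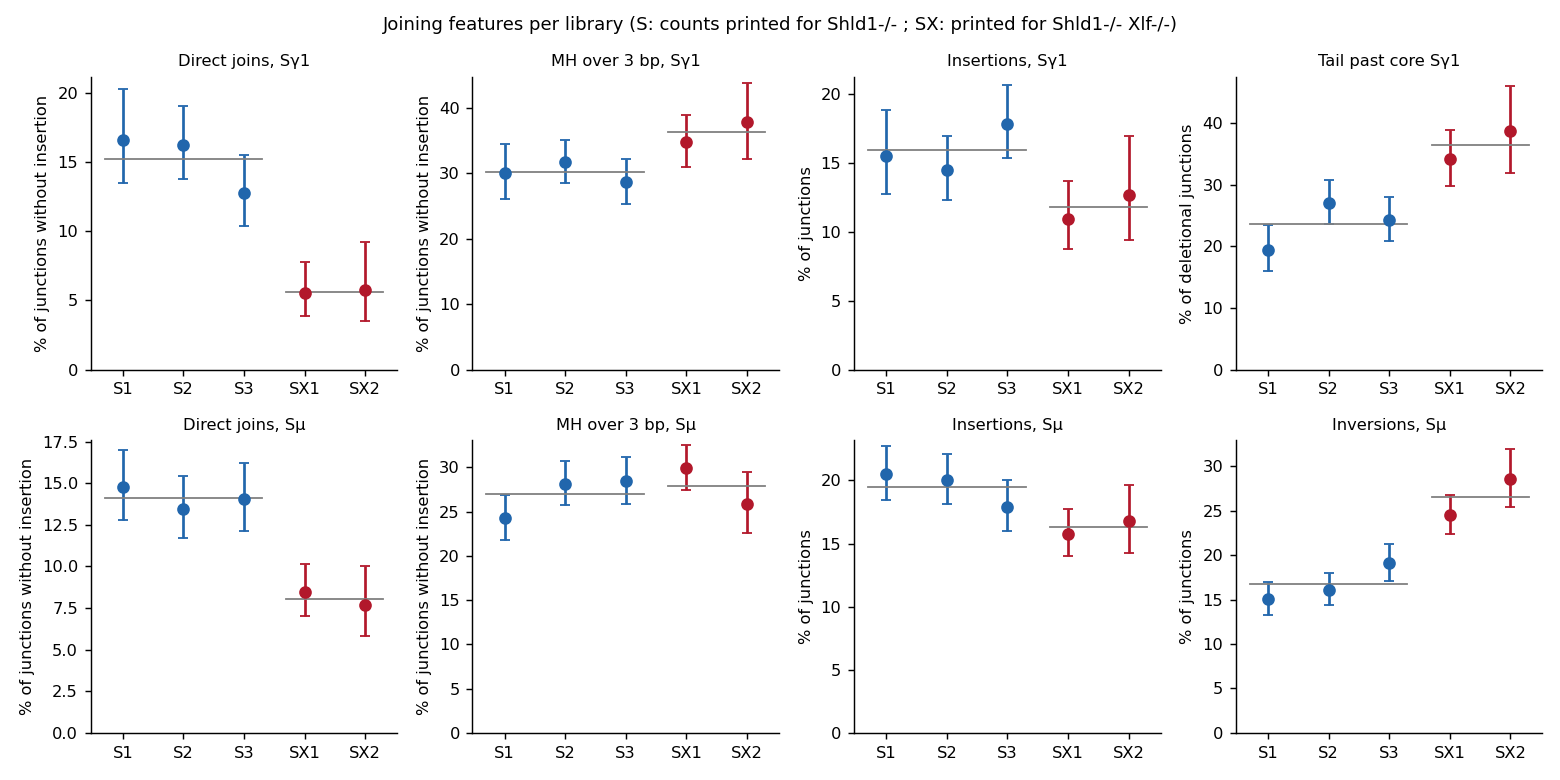
Joining features per library (x axis, S1 to S3 printed for Shld1-/- in blue, SX1 and SX2 printed for Shld1-/- Xlf-/- in red), in percent (y axes from 0); points are library values, bars 95% Wilson intervals and grey lines set means. At Sγ1 direct joins lie at 12.7% to 16.6% in blue and at 5.50% and 5.73% in red, and MH over 3 bp at Sμ is the panel in which the sets overlap.

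Longer MH made up more of the Sγ1 junctions without insertion in SX1 and SX2. Direct joins are part of that denominator, so fewer of them would by themselves raise this share and the mean MH. Neither was computed over joins with MH only, so neither shows that longer MH was more frequent among such joins. MH over 3 bp made up 30.1% (138 of 458), 31.7% (239 of 753) and 28.6% (189 of 660) of Sγ1 junctions without insertion in S1, S2 and S3, against 34.9% (190 of 545) in SX1 and 37.8% (99 of 262) in SX2. SX1 and SX2 lay above the other libraries, but the intervals overlapped (30.98 to 39.0 in SX1 and 28.5 to 35.2 in S2). The difference of the means was 6.16 points (exact permutation p = 0.1, adjusted 0.157). By label it was 11.2 points, and the groups overlapped (exact permutation p = 0.667, where 2 against 2 libraries can give no less than 0.333). Mean MH was 2.72, 2.82 and 2.72 bp in S1, S2 and S3 and 3.30 and 3.16 bp in SX1 and SX2, a difference of 0.48 bp (exact permutation p = 0.1, adjusted 0.157), and the groups by label overlapped here as well.

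By length, the difference lay mainly at the short end. Junctions with an MH of 0 or 1 bp were 31.0%, 30.0% and 28.6% in S1, S2 and S3 and 15.0% and 14.5% in SX1 and SX2. Those with 1 bp alone were 14.4%, 13.8% and 15.9% against 9.54% and 8.78%, so joins with a single shared base were scarcer too. An MH of 2 or 3 bp was found in 38.9%, 38.2% and 42.7% against 50.1% and 47.7%, and an MH of 4 to 6 bp in 25.3%, 24.97% and 23.5% against 26.4% and 30.9%. In none of these classes did the sets overlap. In points, 2 to 3 bp rose most, by 8.95, against 4.08 for 4 to 6 bp and 2.08 for 7 bp or more. The classes share 1 denominator, so fewer joins of 0 or 1 bp would by themselves raise the larger classes most. Shares among joins with an MH of 2 bp or more were not computed. The longest MH was 13, 13 and 12 bp in S1, S2 and S3 and 12 and 11 bp in SX1 and SX2. The GC content of MH over 3 bp was alike, 60.1% to 62.0% in the former and 59.3% and 61.6% in the latter.

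**Figure D2:**
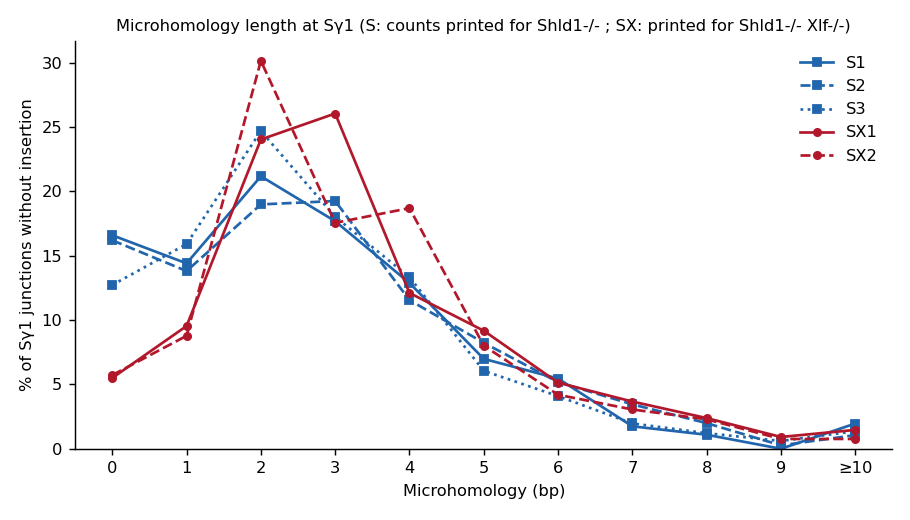
Share of Sγ1 junctions without insertion (y axis, %) by MH length (x axis, bp) in each of the 5 libraries, Shld1-/- printed in blue and Shld1-/- Xlf-/- printed in red. At 0 and 1 bp both red lines lie below the 3 blue lines, at 2 bp they lie at 24.0% and 30.2% and overlap them, and from 6 bp on the lines run close together.

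In points, the difference in direct joins was larger in core Sγ1 than downstream of it. Among deletional junctions in core Sγ1, direct joins were 65 of 285 in S1 (22.8%), 86 of 360 in S2 (23.9%) and 61 of 329 in S3 (18.5%), but 19 of 245 in SX1 (7.76%) and 7 of 101 in SX2 (6.93%). The set means were 21.7% ± 2.83 (SD, n = 3) and 7.34% ± 0.583 (SD, n = 2). In the tail downstream of the core, direct joins were already scarce in the Shld1-/- libraries, with 3 of 74 in S1 (4.05%), 10 of 139 in S2 (7.19%) and 6 of 117 in S3 (5.13%), and the 2 of 121 in SX1 (1.65%) and 3 of 60 in SX2 (5.00%) overlapped them. The difference of the means was -14.4 points in the core and -2.13 points in the tail. With so few direct joins in the tail a smaller difference there was not detectable at this depth, and no test of the difference between the zones was run. In all 5 libraries the tail held fewer direct joins than the core, with a difference of -18.8 to -13.4 points in S1, S2 and S3 and of -6.10 and -1.93 points in SX1 and SX2. Since the zones hold different shares of the junctions in the sets, direct joins were also averaged with the same mix of zones in every library, and the difference was then -8.73 points.

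The same contrast was seen within Sμ. Deletional Sμ junctions within 3 kb of the bait end were direct in 20.7%, 20.1% and 23.1% in S1, S2 and S3 and in 10.9% and 7.58% in SX1 and SX2, a difference of -12.1 points. Past 3 kb the values were 7.99%, 6.44% and 4.52% against 6.79% and 4.78%, and the sets overlapped. Over the whole Sμ window, direct joins were 14.8%, 13.4% and 14.1% of junctions without insertion in S1, S2 and S3 and 8.44% and 7.65% in SX1 and SX2, a difference of -6.05 points (exact permutation p = 0.1, adjusted 0.157), and by label the groups overlapped. MH over 3 bp at Sμ did not separate the sets, with 24.3%, 28.1% and 28.5% against 29.9% and 25.9% (difference 0.94 points, exact permutation p = 0.7, adjusted 0.7), and its direction turned under some alternatives.

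Insertions, which are bases present in neither aligned partner, were less frequent at Sγ1 in SX1 and SX2. At Sγ1 they were found in 84 of 542 junctions in S1 (15.5%), 127 of 880 in S2 (14.4%) and 143 of 803 in S3 (17.8%), against 67 of 612 in SX1 (10.9%) and 38 of 300 in SX2 (12.7%). The sets did not overlap, though the intervals of SX2 (9.37 to 16.9) and of all 3 Shld1-/- libraries did. The difference was -4.11 points (exact permutation p = 0.1, adjusted 0.157), but by label it was -0.63, with groups that overlapped, and between the 2 libraries whose label and printed genotype agree it was -1.77. In core deletions the contrast was larger, with 17.2%, 17.8% and 20.7% in S1, S2 and S3 against 8.58% and 9.01% in SX1 and SX2. In tail deletions it was not seen, with 10.8%, 14.2% and 12.03% against 12.9% and 14.3%. The tail's share of insertions less that of the core was thus -8.69 to -3.61 points in S1, S2 and S3 but 4.37 points in SX1 and 5.28 in SX2, where the intervals of the zones overlapped. Insertions over 1 bp were 11.8%, 8.98% and 12.95% of Sγ1 junctions in S1, S2 and S3 and 7.68% and 8.00% in SX1 and SX2, while 1-bp insertions overlapped (3.69% to 5.45% against 3.27% and 4.67%).

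At Sμ, insertions were 20.5%, 20.1% and 17.9% in S1, S2 and S3 and 15.8% and 16.8% in SX1 and SX2, a difference of -3.22 points (exact permutation p = 0.2, adjusted 0.244), which was -0.80 without the rows that the pipeline flagged for mapping quality. Here too the difference lay close to the bait. Within 3 kb, insertions were 24.7%, 25.3% and 24.5% of deletional junctions against 17.3% and 19.5%, and past 3 kb they were 10.8%, 9.46% and 11.8% against 11.6% and 12.2%. Core Sγ1 and bait-proximal Sμ therefore had in common that direct joins and insertions were both lower in SX1 and SX2.

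**Figure D3:**
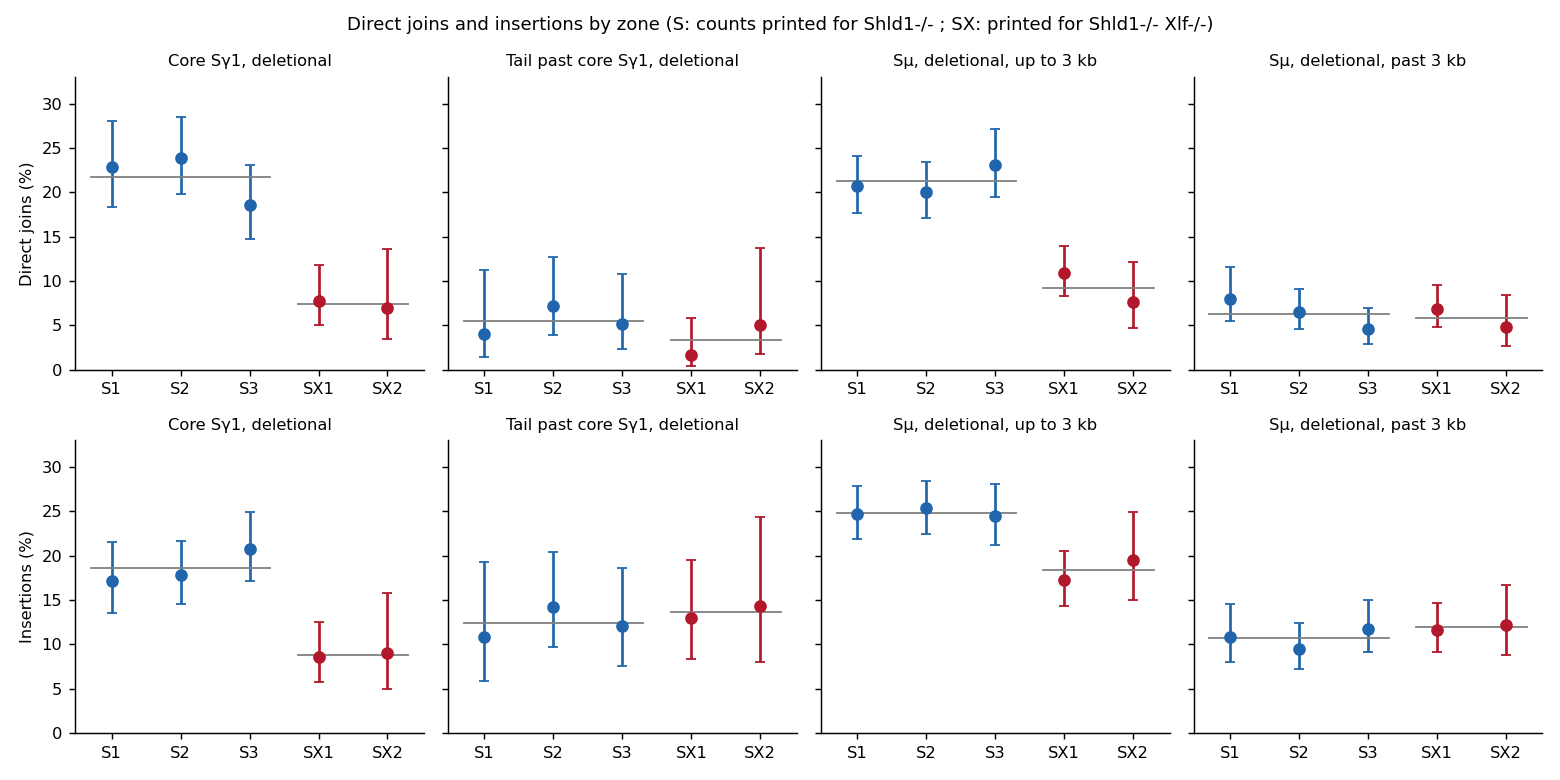
Direct joins (upper row, % of junctions without insertion) and insertions (lower row, % of junctions) among deletional junctions in 4 zones, per library (x axis; points with 95% Wilson intervals, grey lines for set means). In core Sγ1 and in Sμ up to 3 kb from the bait the red libraries lie below the blue ones in both rows, and in the tail past core Sγ1 and in Sμ past 3 kb they overlap.

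The tail itself was larger in SX1 and SX2. Of deletional junctions in or downstream of core Sγ1, 83 of 427 in S1 (19.4%, 15.96 to 23.5), 162 of 600 in S2 (27.0%, 23.6 to 30.7) and 133 of 548 in S3 (24.3%, 20.9 to 28.0) lay past the core, against 139 of 407 in SX1 (34.2%, 29.7 to 38.9) and 70 of 181 in SX2 (38.7%, 31.9 to 45.9). The difference of the means was 12.8 points (exact permutation p = 0.1, adjusted 0.157). By label it was 17.7 points, but the groups overlapped (exact permutation p = 0.667, with 0.333 the smallest possible). Its reach was alike once a junction was in the tail, with a median of 3098, 3376 and 3775 bp past the core edge in S1, S2 and S3 and 3352 and 3028 bp in SX1 and SX2. When deletional junctions up to 17 kb beyond the window were added, the tail was 22.9%, 34.4% and 32.7% against 41.6% and 45.0%, and those past the window were 18.6% to 34.2% of the longer tail in the former libraries and 27.2% and 23.1% in the latter.

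**Figure D4:**
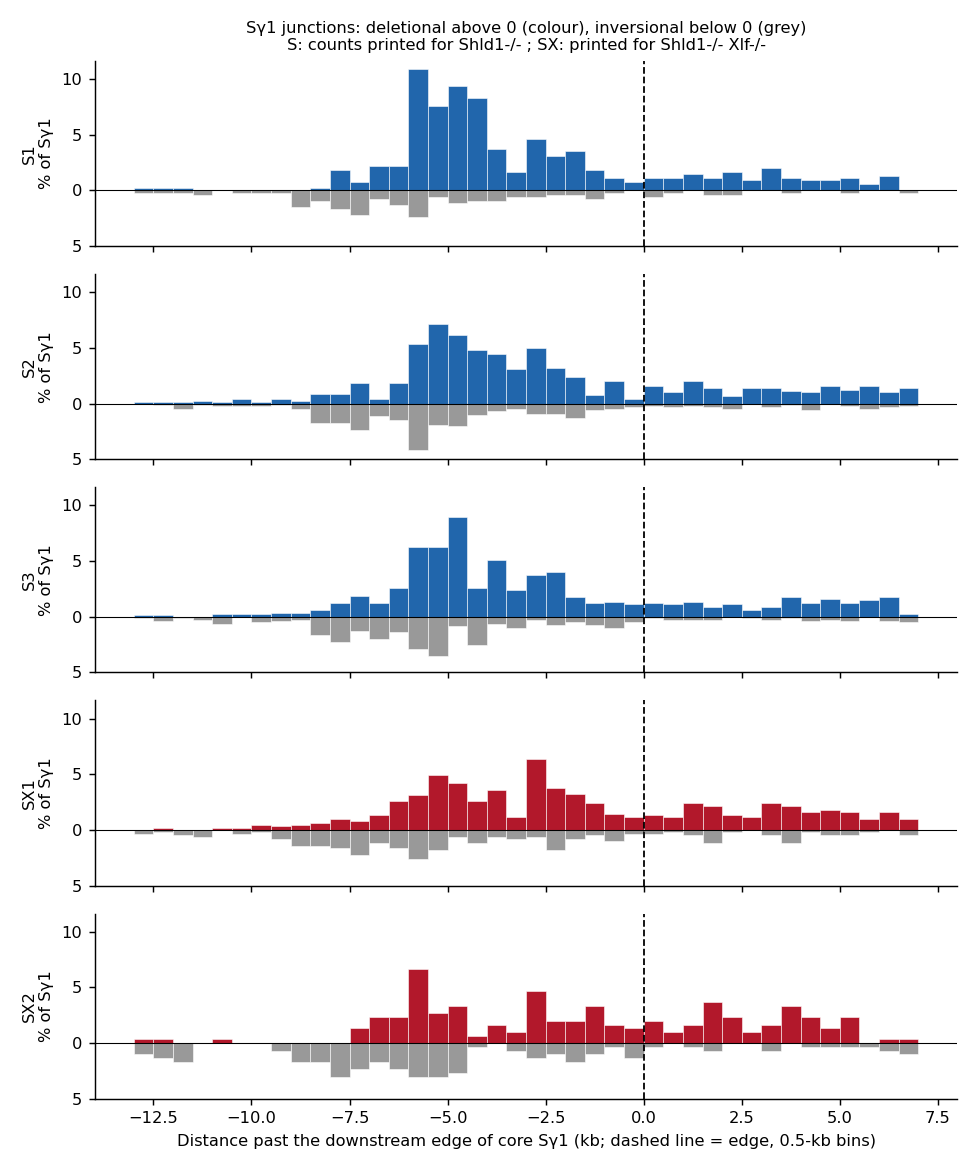
Sγ1 junctions of each library by distance from the downstream edge of the core (x axis, kb, 0.5-kb bins; y axis, % of the library's Sγ1 junctions), deletional above 0 in colour and inversional below 0 in grey. Past the dashed edge the deletional bars hold 34.2% and 38.7% of deletional junctions in or past the core in the lower 2 panels and 19.4% to 27.0% in the upper 3.

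To see what the tail removes, each prey read was matched by its own sequence to GRCm38, where GENCODE places Ighg1, which encodes the constant region of IgG1, on the minus strand of chromosome 12 from 113325240 to 113330523, and its first exon from 113330233 to 113330523. The core edge lies 266 bp before that exon. Of tail junctions 83 of 83, 161 of 162 and 131 of 133 were matched in S1, S2 and S3 and 137 of 139 and 70 of 70 in SX1 and SX2. A break in or past Ighg1, which leaves the switched allele without at least part of the first constant exon, was found in 18.7%, 25.5% and 22.6% of deletional junctions in or past the core in S1, S2 and S3 and in 32.4% and 36.5% in SX1 and SX2. Of the matched tail breaks 73.9% to 84.3% lay within the gene in the former and 81.8% and 91.4% in the latter, and 38.6% to 42.0% against 44.5% and 40.0% lay inside an exon, so that where in the gene the breaks fell did not separate the sets.

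The donor side was examined in the same way at Sμ, where Ighm, which encodes the IgM constant region, begins 3968 bp past the bait end. Deletional Sμ junctions in or past Ighm were 24.5%, 31.2% and 35.8% in S1, S2 and S3 and 37.8% and 39.8% in SX1 and SX2, and those inside an Ighm exon were 7.68%, 9.08% and 8.72% against 14.1% and 13.9%. Neither share was tested. The planned measure, deletional Sμ junctions more than 5 kb past the bait, overlapped between the sets (20.6%, 25.8% and 31.4% against 31.9% and 30.9%, difference 5.46 points, exact permutation p = 0.3, adjusted 0.33). With the limit at 3 kb the values were 29.9%, 37.0% and 43.2% against 44.8% and 49.7%, a difference of 10.5 points (exact permutation p = 0.2). S3, the library labelled Shld1-/-XLF-/-, stood nearest to SX1 and SX2 in each of these Sμ measures other than the share inside an exon.

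Inversional junctions were more frequent in SX1 and SX2 at Sμ, and at Sγ1 whether the sets separated depended on the measure. At Sμ, 207 of 1379 junctions in S1 (15.0%, 13.2 to 16.99), 257 of 1600 in S2 (16.1%, 14.3 to 17.9) and 260 of 1361 in S3 (19.1%, 17.1 to 21.3) were inversional, against 362 of 1477 in SX1 (24.5%, 22.4 to 26.8) and 211 of 738 in SX2 (28.6%, 25.5 to 32.0). The difference was 9.82 points (exact permutation p = 0.1, adjusted 0.157). Inversions upstream of the bait made up a mean of 3.66% against 8.91% of Sμ junctions, a difference of 5.25 points. Those downstream of it made up 13.1% against 17.6%, a difference of 4.57 points. From the bait end to 3 kb downstream the inversional share was 12.4%, 13.9% and 18.5% against 24.7% and 29.9%, and past 3 kb it was 13.1%, 12.2% and 11.2% against 9.26% and 12.4%, which overlap. At Sγ1, the ratio of inversional junctions (core and upstream flank) to deletional junctions (core and tail) was 0.234, 0.368 and 0.383 in S1, S2 and S3 and 0.381 and 0.558 in SX1 and SX2, so SX1 lay just below S3 (difference 0.14, exact permutation p = 0.2, adjusted 0.244). The sets also overlapped on this measure without rows flagged for mapping quality (exact permutation p = 0.2) and with the core narrowed (exact permutation p = 0.3). They did not overlap (exact permutation p = 0.1 each) without rows flagged as duplicates, with identical junctions collapsed, with the core widened or with all junctions of the window. The difference was then 0.141 to 0.18. As a share of core junctions, inversions were 18.7%, 30.1% and 29.8% in S1, S2 and S3 and 30.7% and 41.0% in SX1 and SX2, a difference of 9.65 points. Here too the sets did not overlap, but the intervals of S2 (26.7 to 33.8) and SX1 (26.4 to 35.5) did. Leaving out SX2 brought the difference in the ratio to 0.052 and leaving out SX1 brought it to 0.229. In inversional Sγ1 junctions direct joins were 8.33%, 9.01% and 8.08% against 4.82% and 5.10%, from 5 to 21 junctions per library.

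Junctions upstream of the bait were more frequent in SX1 and SX2 than in any of the Shld1-/- libraries. They were 74 of 2120 *Igh* junctions in S1 (3.49%, 2.79 to 4.36), 109 of 2883 in S2 (3.78%, 3.14 to 4.54) and 96 of 2532 in S3 (3.79%, 3.11 to 4.61), and 210 of 2424 in SX1 (8.66%, 7.61 to 9.85) and 107 of 1159 in SX2 (9.23%, 7.70 to 11.04). The difference was 5.26 points, was measured after the lists had been seen and was not tested, and it was 4.16 points for junctions 500 bp or more from the bait end and 4.04 by label. Most were inversional in every library (68.9% to 79.2% in S1, S2 and S3, 72.9% and 78.5% in SX1 and SX2). Such inversions inside the Sμ window are also counted among the inversions at Sμ above. By match to GRCm38, 43.1%, 56.2% and 46.2% of the matched breaks in S1, S2 and S3 and 59.5% and 60.6% in SX1 and SX2 lay at or beyond the J segment nearest the bait, which is 1816 bp from its end, and the intervals of S2 (46.6 to 65.3) and of SX1 (52.7 to 66.0) overlapped. In the libraries printed for WT, which have SHLD1 and XLF, upstream junctions were 0.754% to 1.17% of *Igh* junctions, and in those printed for Xlf-/- they were 3.26% and 3.85%.

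**Figure D5:**
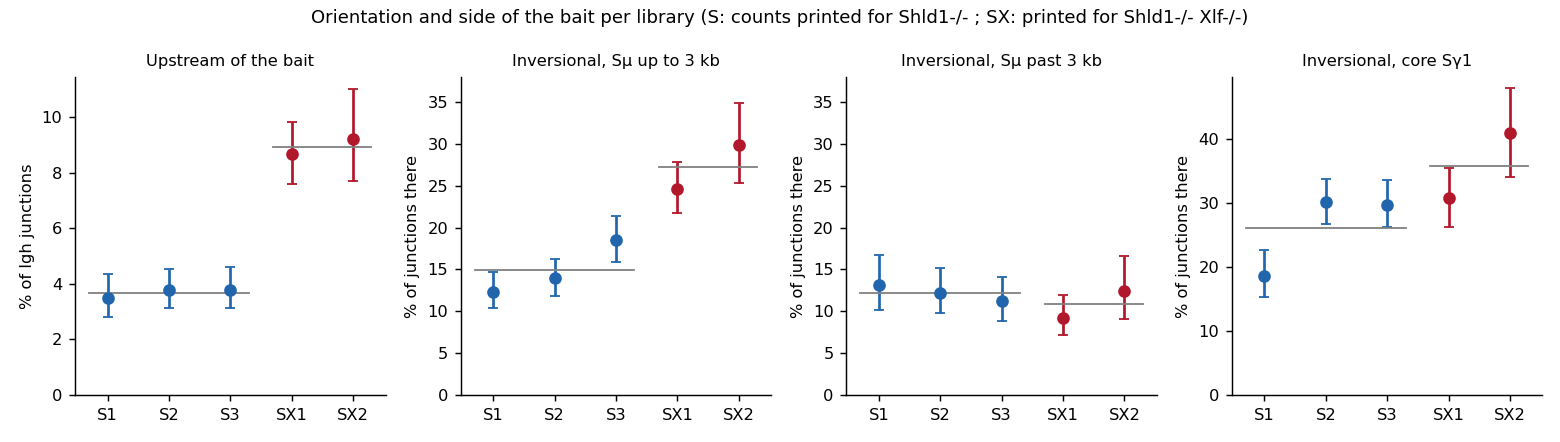
Junctions upstream of the bait (% of Igh junctions) and inversional junctions in 3 zones (% of junctions there), per library (x axis; points with 95% Wilson intervals, grey lines for set means). The red libraries lie above the blue ones upstream of the bait and in Sμ up to 3 kb, in core Sγ1 SX1 (30.7%) lies just above S2 (30.1%), and the sets overlap in Sμ past 3 kb.

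The distribution over *Igh* differed less. Sγ1 held 25.6%, 30.5% and 31.7% of *Igh* junctions in S1, S2 and S3 and 25.2% and 25.9% in SX1 and SX2, a value that belongs to the counts by which the libraries were chosen. Junctions outside both windows were 9.39%, 14.0% and 14.5% against 13.8% and 10.4%. The largest share of them lay within Ighd, which encodes the IgD constant region and follows Ighm, with 4.25%, 5.90% and 5.65% of *Igh* junctions in S1, S2 and S3 and 4.41% and 3.11% in SX1 and SX2. The interval between Ighg2b and Ighg1, which holds Sγ2b, had 1.18%, 3.05% and 3.28% against 2.72% and 1.98%, and that between Ighg3 and Ighd, which holds Sγ3, had 1.60%, 1.60% and 2.37% against 2.35% and 1.64%. None of these separated the sets.

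The features were set beside the same loss with SHLD1 present, from 3 libraries printed for WT and 2 printed for Xlf-/-, of which 3 carry another label. Direct joins at Sγ1 were 30.3% to 31.0% and 12.99% to 18.2% there, a ratio of 0.508 against 0.370 without SHLD1. In points the order was reversed, with a difference of -15.1 against -9.56. MH over 3 bp at Sγ1 was 11.04% to 12.3% and 20.3% to 27.5%, a ratio of 2.06 against 1.204. Insertions at Sγ1 were 17.1% to 17.9% and 9.56% to 11.2%, a ratio of 0.595 against 0.742, and inversions at Sμ were 4.11% to 8.89% and 20.4% to 24.6%, a ratio of 3.27 against 1.59. The tail was 0.402% to 0.586% and 4.29% to 6.64%, a difference of 4.95 points against 12.8, but a ratio of 10.7 against 1.54. The inversion ratio at Sγ1 was 0.044 to 0.0535 and 0.0979 to 0.177, a difference of 0.0893 against 0.14. As a ratio of set means, that change was 2.85 against 1.43. For direct joins at Sγ1, the tail and this inversion ratio, which change was larger therefore depended on the scale. MH over 3 bp at Sμ, which did not separate SX1 and SX2 from the Shld1-/- libraries, was 9.70% to 10.95% and 22.2% to 27.9% with SHLD1 present. The difference had the same sign with and without SHLD1 in 11 of the 11 features tested. These features are not independent, because direct joins and MH of a region come from the same junctions. For MH over 3 bp at Sμ the sign without SHLD1 turned under some alternatives. In core deletions, direct joins were 30.7% to 31.1% and 14.4% to 19.3%, so the Shld1-/- libraries, at 18.5% to 23.9%, lay near the Xlf-/- range and SX1 and SX2 below it. Whether the effect of XLF loss differs with and without SHLD1 was not tested, because all sets come from the same matching of counts.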

How the data were processed

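The authors mapped the reads to mm9 with their published HTGTS pipeline (the submitters' processing notes name Bowtie2, with no version) and deposited, for each library, a list with 1 row per junction and other columns of coordinates, strands, read positions and filter flags. The rows carry no normalization. All rows were counted here, including those flagged as duplicates (1.95% to 4.09% in these libraries), which the study's methods remove before plotting. Rows flagged for mapping quality were 21.2%, 15.9% and 16.5% in S1, S2 and S3 and 12.8% and 11.5% in SX1 and SX2. Without those rows, direct joins at Sγ1 differed by -7.48 points and insertions there by -2.91 (exact permutation p = 0.2). MH over 3 bp at Sγ1 then differed by 6.37 points and the tail by 11.0. The members and measures were chosen with earlier results of these data known. The study describes independent mice for each genotype, but no label ties a library to a mouse.

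MH length is how many read bases both alignments claim, and unclaimed bases between them are an insertion. Core Sγ1 was read from lines drawn in the study's figures. Exact two-sided permutation tests compared set means over libraries, with Benjamini-Hochberg adjustment over 11 tests. Wilson intervals (95%) cover counting error. A share of 3 Sγ1 junctions corresponds to 0.341% to 1.00%. For annotation, the first 80 prey bases were aligned to the *Igh* locus of GRCm38 with bwa 0.7.19, keeping mapping quality 20 or more and an unclipped junction end (71.0% to 82.9% of *Igh* junctions). Genes are from GENCODE vM21. No coordinates were converted. Regions were named where the study names them or where a set's mean share of *Igh* reached 1%. The work was done in Python 3.11.15 (scipy 1.17.1, pandas 2.3.3), and its functions were tested on simulated junctions. Alternatives were grouping by label, S2 against SX2 alone, each library left out, removal of flagged rows, collapsing and pooling of junctions, and other windows, denominators and orientations. Lists of MH length alone, and libraries from mice of another strain, were not used here.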

Additional observations from a re-analysis of the deposited data

Results flagged for a closer look

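Rows whose prey lay outside the *Igh* window, which no comparison uses, made up a larger share of every S and SX library than of the library that is WT in label and figure, where it was 7.48%. The mean was 22.7% in S1, S2 and S3 (21.5% to 24.7%) and 24.8% in SX1 and SX2 (22.5% and 27.1%), so the sets overlapped. No group here has 4 libraries, so none was examined for a library far from the others.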

How the results depend on the processing

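For the 11 tested features, 142 of 146 alternative values kept the direction of the reported difference. The other 4 were values of MH over 3 bp at Sμ, with -2.25 points between the 2 libraries whose label and printed genotype agree, -1.29 without rows flagged for mapping quality, and -1.07 to 2.94 when each library was left out in turn. The Sγ1 share of *Igh* differed by -3.70 points between the sets and by -18.4 by label. No test passed 0.05, since the smallest p that these exact tests can give is 0.1, or 0.333 when grouped by label, so p says nothing about stability. With each library left out, direct joins at Sγ1 differed by -10.8 to -8.85 points, insertions there by -4.97 to -3.16, the tail by 10.6 to 15.1 and inversions at Sμ by 7.78 to 11.9. Of the 8 features whose sets did not overlap, 5 overlapped when grouped by label, whereas the sets stayed apart in all 84 of their other alternatives that had more than 1 library in either set. No paired analysis was possible because the labels give no replicate numbers, and numbers given in accession order pair no libraries. Counts of single digits limit what the tail of SX1 and SX2 can show about direct joins. The causes of these changes were not tested.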
